A study of Homo sapiens with 3 samples.

Results

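The genes examined here carry glucose into glycolysis and on to lactate and fatty acid. They are SLC2A1, HK2, PFKFB3, ENO1, LDHA and FASN. Sites of p63 and ZNF148 near them were taken from chromatin immunoprecipitation followed by sequencing, in which an antibody pulls down a protein with the DNA it is bound to and a peak marks where that DNA piles up. The cells were FaDu, an established pharyngeal squamous carcinoma line, untreated. The p63 antibody recognises ΔNp63α, the N-terminally truncated p63 isoform of squamous epithelia, and the other antibody recognises ZNF148, a zinc finger protein known to bind G-rich DNA. An input library without antibody is the last of the 3 samples and has no peak list here. Peaks were selected by position alone: a peak belonged to a gene when its summit lay within 50 kb of the gene's hg19 span, which is given to 1 kb. This gave 12 of 21922 deposited p63 rows and 51 of 39669 ZNF148 rows. Rows that repeat an interval with a further summit were joined, which left 12 of 21520 p63 peaks and 48 of 37883 ZNF148 peaks on chromosomes 1 to 22 and X. There is 1 list per antibody, so no value has a replicate error and no p-value is given. A peak within 50 kb need not act on the gene, since the windows also reach neighbouring genes.

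SLC2A1 encodes GLUT1, the glucose transporter of most proliferating cells. HK2 encodes hexokinase 2, which traps glucose as its phosphate. PFKFB3 makes the sugar bisphosphate that activates phosphofructokinase, a main control point of glycolysis. ENO1 is the enolase of the lower part of the pathway, LDHA turns its end product pyruvate into lactate, and FASN is the synthase that builds palmitate. Squamous carcinomas are known for high glucose uptake, and several of these genes are textbook targets of MYC and of hypoxia-inducible factor.

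The DNA before the starts of 5 of the 6 genes was available from the RefSeq promoter table, on build GRCh38.p14. The sequences are shown because ZNF148 summits lay within 2 kb of the 5′ end of SLC2A1, HK2 and ENO1. For PFKFB3 the second start is shown, since the strongest ZNF148 peak lay far inside that gene, and LDHA, the last one shown, had no peak. Each runs 5′ to 3′ on the strand of the gene over the 250 bases before a start. They are chr1:42958869-42959118 (minus strand) for SLC2A1, chr2:74833877-74834126 (plus) for the first of the 2 HK2 starts and chr10:6202682-6202931 (plus) for the second of the 2 PFKFB3 starts. The others are chr1:8878687-8878936 (minus) for ENO1 and chr11:18394313-18394562 (plus) for the first of the 2 LDHA starts. Capitals mark GC boxes (GGGCGG on either strand) and the G-rich core CCCTCCC on either strand.
SLC2A1: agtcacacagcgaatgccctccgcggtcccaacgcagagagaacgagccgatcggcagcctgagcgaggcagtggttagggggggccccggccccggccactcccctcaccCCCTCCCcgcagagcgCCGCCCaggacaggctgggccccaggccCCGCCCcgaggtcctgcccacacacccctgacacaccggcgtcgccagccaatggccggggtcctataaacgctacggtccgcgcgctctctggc
HK2: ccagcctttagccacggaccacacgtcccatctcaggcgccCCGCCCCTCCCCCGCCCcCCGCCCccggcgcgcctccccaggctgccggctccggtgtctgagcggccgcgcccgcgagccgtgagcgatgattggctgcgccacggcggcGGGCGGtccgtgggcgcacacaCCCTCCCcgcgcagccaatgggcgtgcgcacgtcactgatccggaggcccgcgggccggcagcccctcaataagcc
PFKFB3: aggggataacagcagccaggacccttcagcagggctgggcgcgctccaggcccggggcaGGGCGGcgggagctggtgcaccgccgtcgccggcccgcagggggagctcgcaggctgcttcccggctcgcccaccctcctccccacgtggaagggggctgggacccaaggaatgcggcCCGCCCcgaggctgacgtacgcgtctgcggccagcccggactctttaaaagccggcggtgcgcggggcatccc
ENO1: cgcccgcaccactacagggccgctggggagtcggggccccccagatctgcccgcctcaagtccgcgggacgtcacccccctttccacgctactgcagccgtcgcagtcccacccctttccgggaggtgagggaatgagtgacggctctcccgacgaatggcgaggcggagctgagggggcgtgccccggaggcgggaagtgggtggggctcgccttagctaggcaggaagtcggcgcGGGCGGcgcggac
LDHA: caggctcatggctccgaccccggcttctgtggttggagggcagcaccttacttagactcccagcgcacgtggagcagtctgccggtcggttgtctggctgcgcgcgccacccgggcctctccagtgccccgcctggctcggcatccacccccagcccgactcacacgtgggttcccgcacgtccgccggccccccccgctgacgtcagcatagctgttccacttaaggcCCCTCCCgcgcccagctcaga

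These promoters were rich in G and C, and GC boxes were frequent. Across the 8 starts that the table gives for the 5 genes, G and C made up 64.8% to 79.2% of the 250 bases, against a median of 58.0% over all 35093 promoters of the table. A GC box was present before 7 of the 8 starts, and 42.6% of all promoters held it. The start without it was the LDHA start printed, while the second LDHA start had 4. The G-rich core was found before 5 of the 8, against 24.7% of all. It was present before the SLC2A1 start, the 2 HK2 starts and the first starts of PFKFB3 and LDHA. It was absent before the ENO1 start and the second starts of PFKFB3 and LDHA. SLC2A1, HK2 and ENO1 had ZNF148 peaks at their 5′ ends and LDHA had none. No relation between the core and the peaks was tested. The shares of all promoters with a GC box or the core were not matched for G and C content. HK2, PFKFB3 and LDHA supply 2 starts each, so the 8 starts are not separate genes. The E-box CACGTG, the sequence bound by MYC, occurred before 3 of the 8 starts, against 6.34% of all. The hypoxia element core ACGTG occurred before 4 of the 8, against 18.5% of all, and every CACGTG also holds it on both strands. LDHA carried 2 E-boxes and PFKFB3 carried 1 in the stretches printed. The second HK2 start, 1043 bp after the first and not printed, also had 2. The decamer bound by the p53 family was found before 0 of the 8 starts and in 5.58% of all promoters. A match of letters is not a bound site, and the peaks, which are in hg19, were not placed on these sequences.

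ZNF148 peaks outnumbered p63 peaks at all 5 genes that had any, and SLC2A1 and FASN held most of both. The ZNF148 list is also the longer of the 2. There were 4 p63 peaks at SLC2A1, 1 at HK2, 2 at PFKFB3, 1 at ENO1, 0 at LDHA and 4 at FASN. ZNF148 had 11 at SLC2A1, 2 at HK2, 6 at PFKFB3, 6 at ENO1, 0 at LDHA and 23 at FASN. SLC2A1 and FASN together held 8 of the 12 p63 peaks and 34 of the 48 ZNF148 peaks. Over the 0.837 Mb of the 6 windows, p63 had 14.3 peaks per Mb, 1.96 times the 7.30 per Mb of its whole list. ZNF148 had 57.3 per Mb, 4.46 times its 12.8 per Mb, and FASN alone supplied 47.9% of these peaks. Without FASN the ratios were 1.53 for p63 and 2.71 for ZNF148. The densities of the whole lists include assembly gaps and parts without genes, unlike windows chosen at genes.

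**Figure D1:**
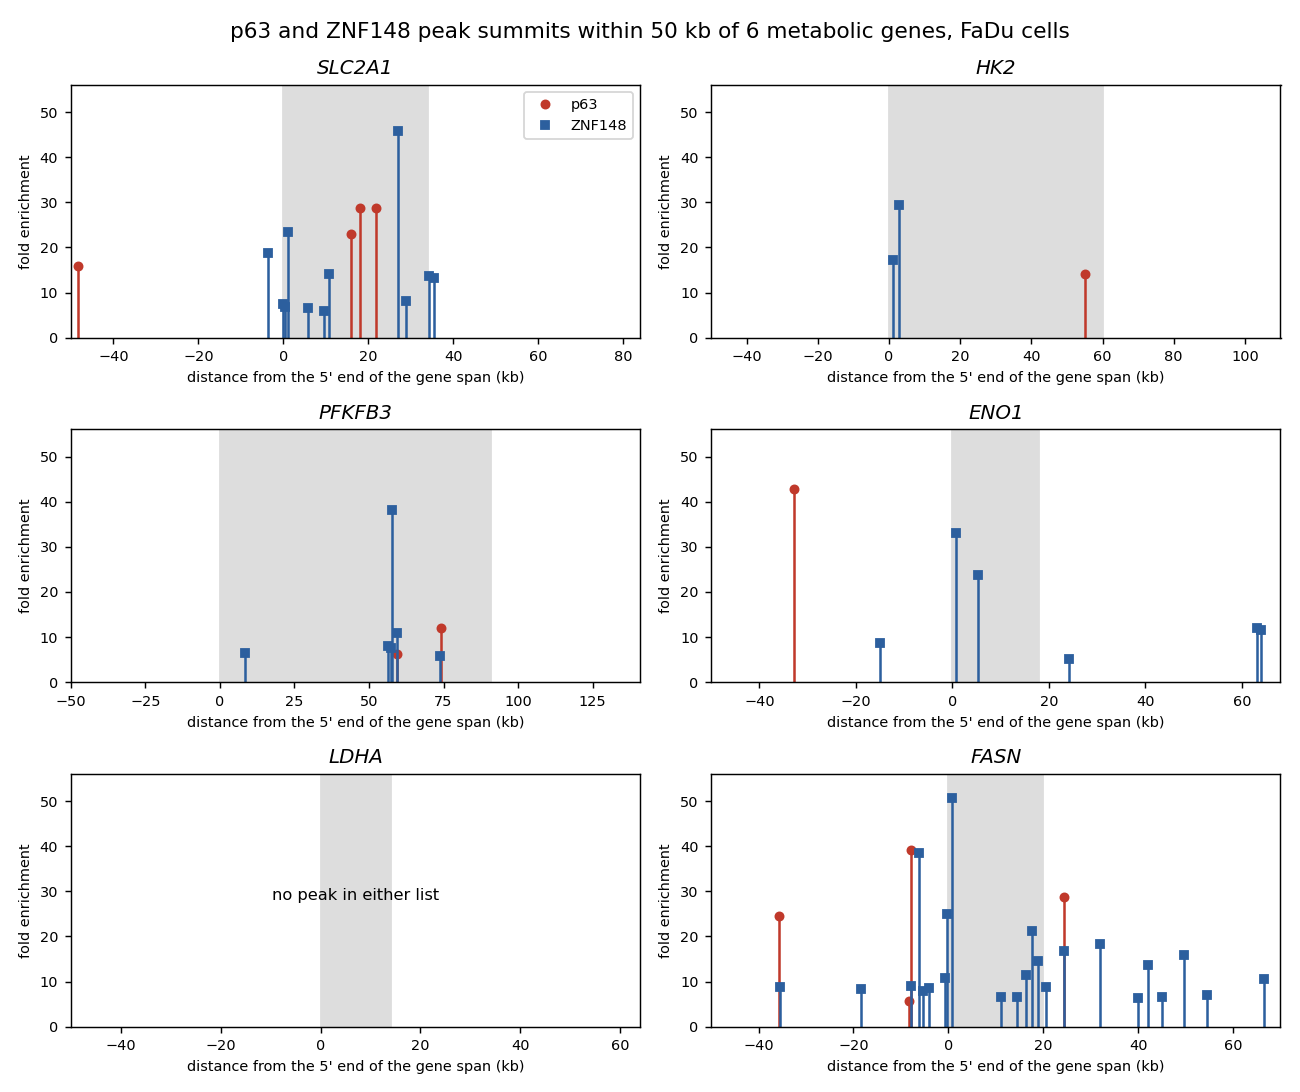
Fold enrichment (vertical axis) of each p63 peak (red circles) and ZNF148 peak (blue squares) against the distance of its summit from the 5′ end of the gene span in kb (horizontal axis, positive in the direction of transcription), 1 panel per gene, with the span shaded. The LDHA panel is empty, and the FASN panel holds 23 ZNF148 and 4 p63 peaks.

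Similar shares of both sets of peaks lay inside the genes, and the summits closest to the 5′ ends were those of ZNF148. ZNF148 had 8 of its 48 peaks with a summit within 2 kb of a 5′ end, namely 3 at SLC2A1, 1 at HK2, 1 at ENO1 and 3 at FASN. None of the 12 p63 summits lay that close, and the nearest was 7985 bp away, at FASN. With 12 peaks this does not establish a difference between the proteins. The share of either whole list this close to a 5′ end was not computed, as it needs an hg19 annotation, so the counts are a description of these genes only. Of the 12 p63 peaks, 6 lay inside a gene span, 5 upstream and 1 downstream. Of the 48 ZNF148 peaks, 23 lay inside, 11 upstream and 14 downstream. Span ends are rounded to 1 kb, so distances below that size give no order along the promoter.

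SLC2A1, the glucose transporter gene, had its p63 peaks deep in the gene and its ZNF148 peaks on both sides of them. On chromosome 1 (span 43391000 to 43425000, minus strand), 3 p63 peaks lay within 6.26 kb of each other inside the span. The peak at 43402936 to 43403231 had a fold enrichment of 28.7 over local background, the peak at 43406718 to 43407022 also 28.7, and the peak at 43408914 to 43409190 a fold of 23.1. These 3 were thus alike in fold, above 73.1% to 80.6% of the p63 list. Their −log10 q, the significance given for each peak, differed more, at 129.8, 158.1 and 79.3. The other p63 peak, at 43473171 to 43473425, lay 48.3 kb upstream, just inside the limit of the window, and had a fold of 15.9.

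The 15.9 kb of SLC2A1 that enclosed the p63 trio held no ZNF148 peak. On the downstream side of this stretch lay the strongest ZNF148 peak of the locus, at 43397497 to 43398140, with a fold of 45.8 (above 96.4% of its list). Its interval held a further summit with a fold of 12.99. At the 5′ end, the ZNF148 peaks at 43423771 to 43424062, 43424591 to 43424793 and 43425023 to 43425228 had folds of 23.4, 6.69 and 7.36, and the last of these had its summit 134 bp from the end of the span. Only the first of the 3 was a strong peak, the others ranking above 20.8% and 29.4% of the list. None of the 4 p63 peaks at SLC2A1 overlapped a ZNF148 peak, beside an overlap for 21.2% of the whole p63 list. With 4 peaks this does not set SLC2A1 apart. The nearest ZNF148 summits were 5147, 7363 and 5163 bp from the summits of the trio, in the order given.

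HK2, the hexokinase gene on chromosome 2 (span 75060000 to 75120000, plus strand), had ZNF148 at its 5′ end and p63 near its 3′ end. The ZNF148 peaks at 75060953 to 75061185 and 75062591 to 75062886 had folds of 17.3 and 29.4, and their summits lay 1064 and 2745 bp past the start of the span. That start may lie about 1 kb before the start of the gene itself, which would place the nearer summit at the gene's start. The p63 peak at 75114862 to 75115097 had a fold of 14.1, above 52.2% of its list, and lay 54968 bp from the start. More than 52 kb separated it from the nearest ZNF148 summit (52223 bp). With 12.5 ZNF148 and 6.25 p63 peaks per Mb, HK2 was the sparsest of the 5 genes with peaks, 0.625 and 0.781 times the densities of the 1 Mb on either side (40 ZNF148 and 16 p63 peaks in 2 Mb).

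PFKFB3 on chromosome 10 (span 6187000 to 6278000, plus strand) had its peaks of both proteins far inside the gene. No p63 or ZNF148 summit lay within 2 kb of the start of the span, and the nearest was a weak ZNF148 peak 8562 bp into it, at 6195469 to 6195638 (fold 6.49). Between 56 and 60 kb from the start lay 4 of the 6 ZNF148 peaks. The strongest, at 6244647 to 6244950, had a fold of 38.2, above 93.8% of its list, and its summit lay 57.8 kb from the start. RefSeq gives a second PFKFB3 start 58011 bp after the first on GRCh38.p14. These distances come from different builds and were not converted.

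Just past that site, p63 and ZNF148 coincided. The p63 peak at 6246405 to 6246553 lay wholly inside the ZNF148 peak at 6246405 to 6246595, with summits 17 bp apart. It was among the weakest p63 peaks, with a fold of 6.18 (above 7.0% of the list), while ZNF148 had a fold of 10.8 there (above 55.5%). A further p63 peak at 6261145 to 6261376 had a fold of 11.9. The ZNF148 peak beside it, at 6260922 to 6261107, had a fold of 5.77 and ended before it began, with summits 261 bp apart. Both p63 peaks of PFKFB3 thus had folds below the p63 list median of 13.2, and 1 other member peak did so, at FASN.

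ENO1, the enolase gene on chromosome 1 (span 8921000 to 8939000, minus strand), had ZNF148 at its 5′ end and the strongest p63 peak of the 12 upstream. The ZNF148 peak at 8937993 to 8938325 had a fold of 33.1 and a summit 845 bp inside the span, and a second one at 8933653 to 8933933 had a fold of 23.7. Both ranked high in their list, above 91.4% and 84.5% of it. The p63 peak at 8971611 to 8971942 had a fold of 42.8, above 91.9% of the p63 list, and its summit lay 32.8 kb upstream of ENO1. CA6 is the next protein-coding gene on that side in the RefSeq gene order. The nearest ZNF148 summit was 17734 bp from it, at a peak with a fold of 8.75. The other 3 ZNF148 peaks were downstream, with folds of 5.05 to 12.1.

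LDHA, the lactate dehydrogenase gene on chromosome 11 (span 18416000 to 18430000, plus strand), had no peak of either protein in its 114 kb window. The nearest ZNF148 peak, at 18343728 to 18344169, lay 72.0 kb upstream with a fold of 16.6. For p63 it was the peak at 18334758 to 18334906, 81.2 kb upstream with a fold of 7.06. On the other side the nearest peaks were 118.4 kb (ZNF148, fold 5.77) and 122.6 kb (p63, fold 10.2) away. Empty stretches were common along the chromosomes: of 25853 consecutive stretches of this length, 32.6% held no peak of either list. Assembly gaps and parts without genes were not left out of these stretches, so they are not a like set for a window chosen at a gene. The 1 Mb on either side of the LDHA window was not empty, with 15.0 ZNF148 and 6.50 p63 peaks per Mb. The lowest −log10 q in the lists is 3.01 (p63) and 3.02 (ZNF148), and sites at LDHA below these values would not appear.

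FASN, the fatty acid synthase gene on chromosome 17 (span 80036000 to 80056000, minus strand), had the densest binding of the 6. Its 120 kb window held 192 ZNF148 peaks per Mb, and 0.122% of 24559 consecutive stretches of that length held at least its 23 peaks. For p63 the density was 33.3 per Mb, and 3.84% of the stretches held at least 4 peaks. The region around it was dense too. The 1 Mb on either side held 226 ZNF148 and 50 p63 peaks in 2 Mb, so the window exceeded its surroundings 1.696 times for ZNF148 and 1.33 times for p63. Chromosome 17 as a whole had 30.7 and 10.8 per Mb.

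**Figure D2:**
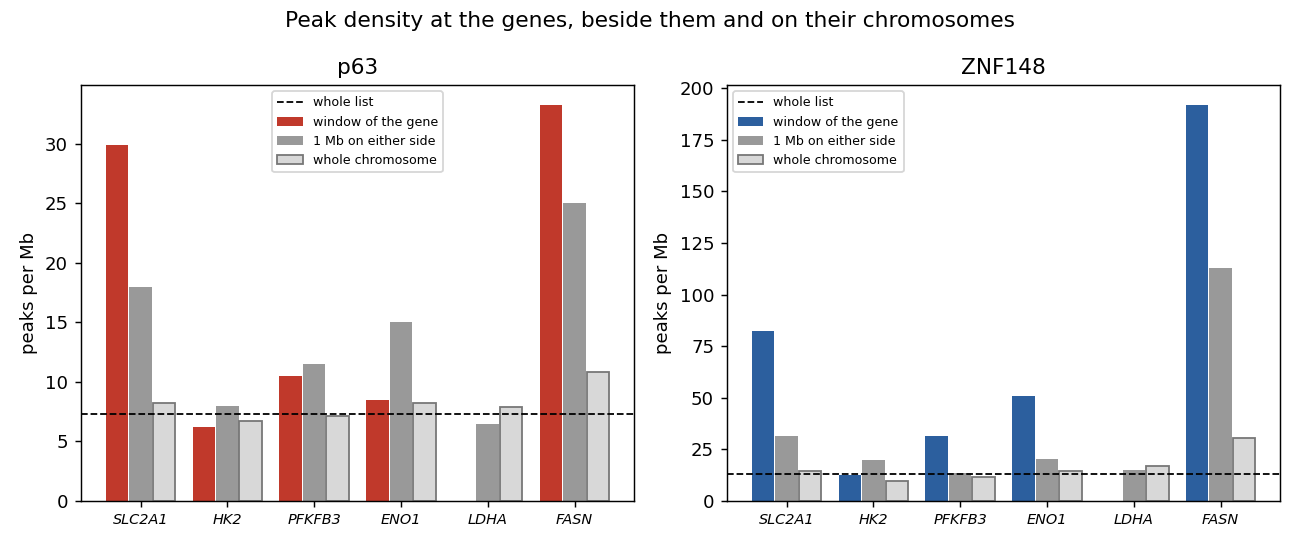
Peaks per Mb (vertical axis) of p63 (left) and ZNF148 (right) in the window of each gene (coloured bars), in the 1 Mb on either side (dark grey) and on the whole chromosome (light grey), with the whole list as a dashed line. The windows of FASN and SLC2A1 stand highest in both panels, and LDHA has no coloured bar because its window held 0 peaks.

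SLC2A1 was the other gene whose window exceeded its surroundings for both proteins. Its 82.1 ZNF148 peaks per Mb were 2.61 times the 31.5 per Mb of the 1 Mb on either side, and its 29.9 p63 peaks per Mb were 1.66 times their 18.0. At ENO1 and PFKFB3 the excess was seen for ZNF148 alone, at 2.48 and 2.33 times. For p63 the ratios there were 0.565 and 0.911, and they rest on 1 and 2 peaks. The p63 ratios of SLC2A1 and FASN rest on 4 peaks each, so these are uncertain too, and no difference from the surroundings was tested. Among stretches of the same length, 2.11% held at least the 11 ZNF148 peaks of SLC2A1 and 4.97% at least its 4 p63 peaks. For HK2, 40.1% of stretches held at least 2 ZNF148 peaks.

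The strongest ZNF148 site of all 48 was at the 5′ end of FASN. This peak, at 80055067 to 80055473, had a fold of 50.7, above 97.6% of the list, and a summit 750 bp inside the span. It was followed across the end of the span by peaks at 80056135 to 80056493 (fold 25.02, summit 295 bp outside) and 80056656 to 80057016 (fold 10.8). A second strong site at 80062032 to 80062414, 6184 bp upstream, had a fold of 38.4. Inside the span the 6 ZNF148 peaks ranged down to a fold of 6.49. Downstream of the gene, 9 peaks of folds 6.25 to 18.4 continued through the window. DUS1L is the next protein-coding gene on that side in the RefSeq gene order. Its hg19 position was not available, so these peaks may lie at or beyond DUS1L and were not assigned to a gene. On the upstream side the next one is CCDC57, also without an hg19 position here, and the upstream peaks were not assigned either.

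Joint sites of p63 and ZNF148 were found at FASN, and at 1 place in PFKFB3. At FASN, 3 of the 4 p63 peaks overlapped a ZNF148 peak, beside 21.2% of the whole p63 list. These are only 4 peaks, in a window with 192 ZNF148 peaks per Mb, and a difference from the list was not tested. The p63 peak at 80063781 to 80064172, 7985 bp upstream of the gene, had a fold of 39.2, and the ZNF148 peak at 80063840 to 80064082 lay wholly inside it with a fold of 8.94 and a summit 9 bp away. Further upstream, the p63 peak at 80091455 to 80091778 had a fold of 24.6, against 8.85 for ZNF148 at 80091344 to 80091755, with summits 105 bp apart. CCDC57 is the next protein-coding gene on the upstream side in the RefSeq gene order. Its hg19 position was not available, so these upstream sites may lie at or beyond CCDC57 and were not assigned to a gene. Downstream of FASN, the p63 peak at 80031375 to 80031696 had a fold of 28.8, against 16.8 for ZNF148 at 80031468 to 80031769, with summits 80 bp apart. The p63 fold was thus the larger at the FASN sites, by 4.39, 2.78 and 1.71 times, and the smaller at PFKFB3, at 0.571 times. Depth and background differ between the libraries to an unknown extent, so these ratios do not rank the proteins. The fourth p63 peak of FASN, at 80064234 to 80064431, began 61 bp beyond the strong one, had a fold of 5.65 and overlapped no ZNF148 peak.

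Over the 6 genes, 4 of 12 p63 peaks were shared, or 33.3% (95% exact binomial interval 9.92% to 65.1%), beside 21.2% of the whole p63 list. Of the 48 ZNF148 peaks, 4 were shared, or 8.33% (2.32% to 19.98%), beside 12.1% of the whole list. Both intervals, which cover counting error only, include the value of the list, so the genes were not distinguishable from the lists in this respect. Without FASN, 1 of 8 p63 and 1 of 25 ZNF148 peaks were shared. When only peaks with a fold of at least 10 were kept in both lists, 1 of 10 p63 peaks was shared. Measured between summits, the distance from a p63 peak to the nearest ZNF148 peak had a median of 2752.5 bp (9 to 52223 bp), against 11732 bp over the whole p63 list (quartiles 752.5 and 42538 bp). A ZNF148 summit lay within 10 kb of 9 of the 12, beside 47.6% of the list. The FASN p63 summits were all among these, at 9 to 358 bp. ZNF148 peaks were also 4.46 times as dense in the windows as in their list, and the part of this in the distances was not tested.

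**Figure D3:**
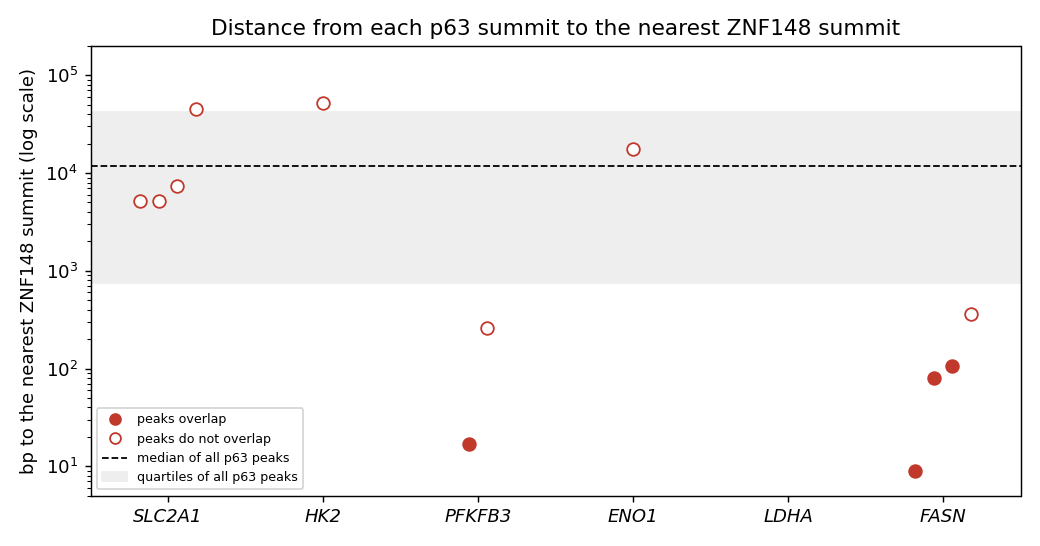
Distance in bp from each of the 12 p63 summits to the nearest ZNF148 summit (vertical axis, log scale) by gene, with filled circles where the peaks overlap and open circles where they do not. The dashed line and the band are the median (11732 bp) and quartiles of the whole p63 list; all FASN and PFKFB3 points lie below the band.

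Within 50 kb of these genes the median p63 peak was stronger than that of the list, and the ZNF148 peaks were close to theirs. The median fold was 23.8 for the 12 p63 peaks (5.65 to 42.8) and 13.2 for the list, with 9 of the 12 above it. For ZNF148 the median was 10.8 (5.05 to 50.7) beside 9.83, with 26 of 48 above. In the top 25% of their list by fold were 6 of the 12 p63 peaks and 14 of the 48 ZNF148 peaks. Without FASN the median fold of p63 was 19.5, and with windows of 100 kb it was 13.2, the value of the list, so the excess depends on the window. Both values were within counting error of the 23.8, which is wide with 12 peaks. Member peaks were also somewhat longer than the lists, with medians of 286.5 bp for p63 (236 bp in the list) and 279 bp for ZNF148 (248 bp).

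**Figure D4:**
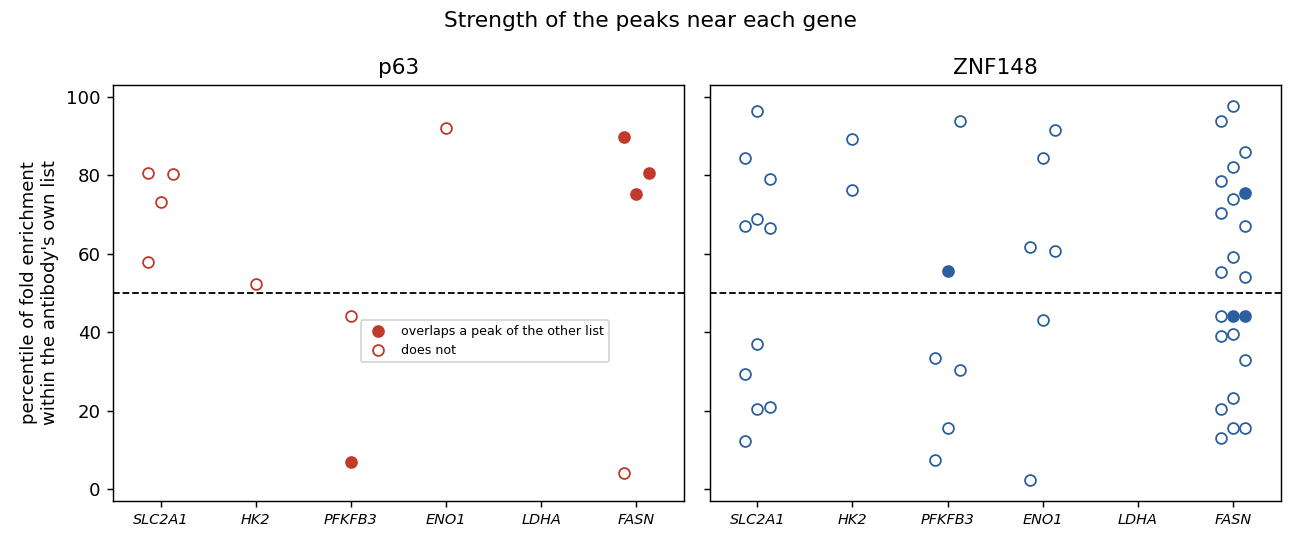
Percentile of each peak's fold enrichment within its own list (vertical axis) for p63 (left) and ZNF148 (right) by gene, with filled circles for peaks that overlap a peak of the other list and the dashed line at the list median. Of the 12 p63 peaks, 9 lie above the line, and each of the 5 genes with peaks has a ZNF148 peak at a percentile of 89.3 or more.

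Several FASN peaks, joint or not, had high −log10 q values for their folds. The p63 peak at 80063781 to 80064172 had a −log10 q of 286.9 and was the 169th of its list by q, while its fold was above 89.8% of the list. Peaks of the p63 list with a fold within 10% of its own had a median −log10 q of 140.6, and 0.725% of them reached its value. For the p63 peaks at 80091455 to 80091778 and 80031375 to 80031696 these shares were 0.46% and 1.42%. The ZNF148 peaks of the same 3 sites gave 1.31%, 0.206% and 0.829%. ZNF148 peaks of FASN without p63 reached similar values, with 1.12% at 80056135 to 80056493 and 2.41% at 80062032 to 80062414. At ENO1 the p63 peak with the larger fold of 42.8 had a −log10 q of 138.5, and 76.7% of its like reached it. At PFKFB3 the joint p63 peak gave 92.6%. Above the median of their like were 4 of 4 p63 peaks at FASN, 4 of 4 at SLC2A1 and 1 of 1 at HK2. At ENO1 it was 0 of 1 and at PFKFB3 0 of 2. For ZNF148 it was 16 of 23 at FASN, 7 of 11 at SLC2A1, 4 of 6 at ENO1, 4 of 6 at PFKFB3 and 1 of 2 at HK2. Values above the median were thus not particular to FASN. The fold is a ratio to local background and q also follows the number of reads. The reads and the local background of each peak are unknown here, and their part in these values was not tested. This comparison was chosen after the values had been seen.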

How the data were processed

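The files used are 2 narrowPeak lists, 1 per antibody, without header lines. Per the submitters' processing notes, Bowtie2 2.3.4.3, SAMtools 1.7 and MACS2 2.2.6 and the build hg19 were used, with no role or setting given. Per the labels' protocols, the DNA came from 3 independent assays, which 1 list per antibody cannot separate. No source used here states the control, the duplicate handling or the depth. The deposited fold enrichment, a ratio, and the deposited −log10 p and −log10 q are the authors' values for each peak, and the deposited score was not used. Columns were read in narrowPeak order.

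Rows of the same interval were joined under their most significant summit, and overlap meant at least 1 bp. Positions are 1-based. Densities of lists and chromosomes, and the consecutive stretches, cover each chromosome from its outermost peak to the other. Assembly gaps and parts without genes were not left out. The 5′ end is the start of the span for plus-strand genes and its end for minus-strand genes. The percentage of a list given beside a fold counts peaks with a lower fold. Intervals for shares are exact binomial (Clopper-Pearson, 95%) and treat peaks as independent.

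The genes and lists were chosen with earlier results of these data known. By rule the text names every p63 peak, the ZNF148 peak of highest fold and the peaks nearest the 5′ end at each gene, and every overlapping pair; other peaks were named after their values were seen. A set of 25 other pathway genes was not analysed here, since it needs an hg19 annotation. RefSeq tables on GRCh38.p14 served for promoter sequences and neighbouring gene names. Overlap code was tested on simulated intervals. Python 3.11.15, numpy 2.4.6, pandas 2.3.3, scipy 1.17.1 and matplotlib 3.10.9 were used. Alternatives were stricter q and fold limits, windows of 10, 25 and 100 kb, every row counted, other overlap criteria and leaving out FASN.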

Additional observations from a re-analysis of the deposited data

How the results depend on the processing

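Results were recomputed 122 times in all. In 104 cases the result was within counting error of the one reported (counts of peaks: within 1.5 times), in 18 it was not, and density ratios crossed 1 in 0 cases. With a window of 100 kb there were 26 p63 peaks at the 6 genes in place of 12. A window of 10 kb raised the density over the whole list to 3.45 times for p63 and 7.85 times for ZNF148, and one of 25 kb gave 5.94 times for ZNF148. The number of ZNF148 peaks fell from 48 to 26 with a fold of at least 10, and to 25 without FASN, an alternative chosen after seeing the data, which also lowered the ZNF148 density ratio from 4.46 to 2.71. The median p63 fold of 23.8 became 13.2 with 100 kb, which equals that of the list. This was still within the wide counting error of the median and is not among the 18. The shares of shared peaks stayed within their intervals, which are wide. Their lowest values were 10.0% (p63) and 3.85% (ZNF148), both with a fold of at least 10 in either list. LDHA was empty of both proteins with windows of 10, 25 and 50 kb and had 2 peaks of each with 100 kb. The p63 peak of ENO1 was lost with 10 and 25 kb. No paired analysis was possible because each antibody has 1 list. Depth is unknown, so a missing peak does not show a missing site.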

Other observations

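Between 50 and 100 kb from the gene spans lay a further 14 p63 and 18 ZNF148 peaks. The p63 peaks with an overlap there were 0 of 14, beside 21.2% of the whole p63 list. These are only 14 peaks, and a difference from the list was not tested. Of the ZNF148 peaks, 11 were at FASN, and 10 of these lay downstream of it, between 74.9 and 105.9 kb from its 5′ end, with folds of 5.46 to 17.7. SLC2A1 had 5 p63 peaks in this outer zone, all upstream at 55.3 to 89.6 kb with folds of 6.41 to 15.9, so that they continue the outermost p63 peak of its window, and it had no upstream ZNF148 peak there. HK2 had its strongest outer ZNF148 peak downstream, at 75185916 to 75186195, with a fold of 25.3. For LDHA, the outer p63 peaks had folds of 6.72 and 7.06 and the outer ZNF148 peaks 4.38 and 16.6, all upstream. PFKFB3 and ENO1 had no ZNF148 peak in the zone, and ENO1 had 1 p63 peak with a fold of 16.3, 76.5 kb upstream.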
